A study of Homo sapiens with 12 samples.

Results

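The genes described here are 10 readers of m6A, the methylation of adenosine within RNA. They are YTHDF1, YTHDF2, YTHDF3, YTHDC1, YTHDC2, IGF2BP1, IGF2BP2, IGF2BP3, HNRNPA2B1 and HNRNPC, taken by gene symbol. These 10 were chosen with earlier results of these data known. All 10 were found among the 62656 genes of the count table and the 38828 genes of the FPKM table, and all 10 passed the filter on low counts in both cell lines. The measurements are RNA-seq read counts in 12 libraries, 3 in each of 4 groups, of the established colorectal cancer lines HCT116 and LoVo. In HCT116, controls (columns headed Vector) were compared with cells overexpressing (OE) SLERT, a long non-coding RNA. In LoVo, controls (ShNC) were compared with cells in which SLERT was knocked down (KD, columns headed Sh). The sources used here give neither the constructs nor the time after their delivery, nor whether cells were clones or pools. Nor do they say if replicate libraries are separate cultures, so a p-value reflects only the spread between libraries, which may be technical.

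As background, methyltransferase complexes write m6A on messenger RNA, demethylases erase it, and reader proteins carry out its effects. YTHDF1, YTHDF2 and YTHDF3 bind m6A through a YTH domain in the cytoplasm and act on decay and translation, whereas YTHDC1 acts in the nucleus on splicing and export, and YTHDC2 is a YTH protein with an RNA helicase domain. IGF2BP1, IGF2BP2 and IGF2BP3 are RNA-binding proteins that stabilise the mRNAs they bind, MYC among them. HNRNPA2B1 and HNRNPC are abundant nuclear proteins of pre-mRNA, and m6A can change RNA structure so that HNRNPC reaches its site.

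The study altered SLERT, whose ends are the snoRNAs SNORA5A and SNORA5C within TBRG4, so these genes served as the readout of the manipulation. In HCT116, summed counts of SNORA5C were 16 in controls and 1926 in OE libraries, and those of SNORA5A were 0 and 142. In LoVo, SNORA5C had 37 counts in both arms, SNORA5A had 12 and 10, and TBRG4 stood at 225 ± 2.91 and 236 ± 16.6 CPM (counts scaled to the normalised library total; SD, n = 3). TBRG4 rose in HCT116, from 162 ± 10.1 CPM in controls to 255 ± 13.8 CPM with OE (edgeR adjusted p = 5.24e-08). The LoVo libraries labelled KD thus showed no fall in these rows, and every LoVo direction below is that of the labels. The snoRNA counts there were near the floor. Per library, SNORA5C had 9 to 19 counts in controls and 11 to 14 with KD, and SNORA5A had 2 to 7 and 1 to 8. Such counts limit what fall could be seen, and TBRG4 is the host gene of the snoRNAs. Totals ran from 14.46 to 17.23 M counts. The 10 epithelial markers summed to 4656 to 5088 CPM in HCT116, where CDX1 was at 0, and to 6783 to 8325 CPM in LoVo. Most of the HCT116 sum was KRT8, KRT19 and KRT18 (means of 2646, 1132 and 584 CPM in controls). VIL1, CDH17 and KRT20 were also low there, at 0.083, 0.62 and 1.5 CPM in controls. In HCT116, 7 of the 10 markers had means above 1 CPM in controls and 6 with OE, against all 10 in both LoVo groups. In the libraries labelled KD, 2 of these 10 markers rose and 6 fell (edgeR adjusted p under 0.05), against 12.6% and 13.7% of all genes tested. The part of these markers in the changes of the readers was not tested. Leukocyte markers summed to at most 5.43 CPM in any library, with CD3E, CD3D or MS4A1 at 0 in each group. Fibroblast and endothelium markers summed to 74.3 to 89.3 CPM in HCT116 and to 1.76 to 3.20 CPM in LoVo. COL1A1 made up most of the HCT116 sum, with means of 82.2 CPM in controls and 71.3 CPM with OE. Hepatocyte markers summed to at most 7.16 CPM in any library.

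Promoter windows from RefSeq (GRCh38.p14), from 250 bases before to 50 after a start, were matched by symbol for 8 of the 10 readers, in 10 windows. The 250 bases before the start are shown for 3 genes, each 5′ to 3′ on the gene's strand. YTHDC2 (chr5:113513444-113513693, plus) is shown because it alone among the readers passed the test within a line, YTHDC1 (chr4:68350091-68350340, minus) because it holds the same motif, and IGF2BP3 (chr7:23470492-23470741, minus) because it had the largest difference between the lines. Capitals mark the cAMP response element TGACGTCA in YTHDC2 and YTHDC1 and the E-box CACGTG in IGF2BP3. GC, CCAAT and TATA boxes and AP-1 and EGR1 motifs were also searched for and are not marked. GC boxes (GGGCGG) lay in the windows of YTHDC2 and YTHDC1, against 45.0% of all promoters. A CCAAT box lay in that of YTHDC2, against 34.6%.
YTHDC2: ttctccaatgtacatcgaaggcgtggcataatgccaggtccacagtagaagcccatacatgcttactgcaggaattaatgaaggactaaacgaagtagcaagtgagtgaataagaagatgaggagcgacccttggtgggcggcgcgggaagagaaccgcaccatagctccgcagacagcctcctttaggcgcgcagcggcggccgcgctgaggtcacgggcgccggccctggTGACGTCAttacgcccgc
YTHDC1: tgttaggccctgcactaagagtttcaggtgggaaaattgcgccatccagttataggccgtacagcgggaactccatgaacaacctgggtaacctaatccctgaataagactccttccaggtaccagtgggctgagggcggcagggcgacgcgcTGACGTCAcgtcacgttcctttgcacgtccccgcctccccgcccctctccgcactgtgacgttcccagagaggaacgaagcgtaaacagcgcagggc
IGF2BP3: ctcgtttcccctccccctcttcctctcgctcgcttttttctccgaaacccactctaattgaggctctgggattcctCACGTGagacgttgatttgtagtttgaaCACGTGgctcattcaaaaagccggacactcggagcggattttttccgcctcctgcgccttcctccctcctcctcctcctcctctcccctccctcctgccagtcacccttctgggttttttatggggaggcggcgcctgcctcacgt
Both marked motifs are palindromes, so a match on one strand is a match on the other, and they do not overlap each other. TGACGTCA began 18 bases before the start of YTHDC2 and 97 bases before that of YTHDC1, and 1.85% of 35116 promoters of the same length held it. CACGTG began 174 and 146 bases before the start of IGF2BP3, and 211 bases before that of YTHDF1, against 7.26% of all promoters. A match describes these letters and is not a binding site.

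Compared per length (FPKM), the readers spanned a wide range, and the HNRNP pair was the most abundant in every group. The lengths are those implied by the deposited FPKM, and orders between genes depend on them. For HNRNPA2B1 this length was 12613 bases, whereas its longest protein-coding transcript in GENCODE v29 has 3664 bases. Orders under other lengths were not tested. In HCT116 controls HNRNPA2B1 stood at 146 ± 2.86 and HNRNPC at 137 ± 4.47 FPKM (SD, n = 3 here and below). IGF2BP2 followed at 37.6 ± 0.991, YTHDF2 at 33.9 ± 1.08 and YTHDF1 at 30.1 ± 0.913 FPKM. IGF2BP3 (20.3 ± 0.568), YTHDC1 (17.3 ± 0.356) and YTHDF3 (15.7 ± 0.679) came next. YTHDC2 was lower at 4.89 ± 0.0968, and IGF2BP1 was last at 0.211 ± 0.0571 FPKM. No neighbours in this order overlapped between their libraries in the HCT116 controls. In OE libraries YTHDF3 overlapped with IGF2BP3 above it and with YTHDC1 below it, so its place in the order there did not exceed the spread.

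The order differed in LoVo controls. HNRNPA2B1 led at 154 ± 6.74 FPKM, ahead of HNRNPC at 96.9 ± 3.53 and IGF2BP2 at 34.0 ± 1.63. YTHDF1 (28.7 ± 1.06) stood above YTHDF2 (23.6 ± 0.701), the reverse of their order in HCT116. The implied lengths of these genes were 3206 and 3729 bases, against 3301 and 2925 bases for their longest protein-coding transcripts. Which of them stands higher in LoVo therefore depends on the length used. YTHDC1 (16.1 ± 0.985), YTHDF3 (12.3 ± 0.960) and IGF2BP3 (11.0 ± 0.305) came next, the last 2 with overlapping libraries. YTHDC2 stood at 6.50 ± 0.279 and IGF2BP1 at 0.410 ± 0.0507 FPKM. The KD libraries had the same order as the LoVo controls, again with YTHDF3 and IGF2BP3 overlapping.

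**Figure D1:**
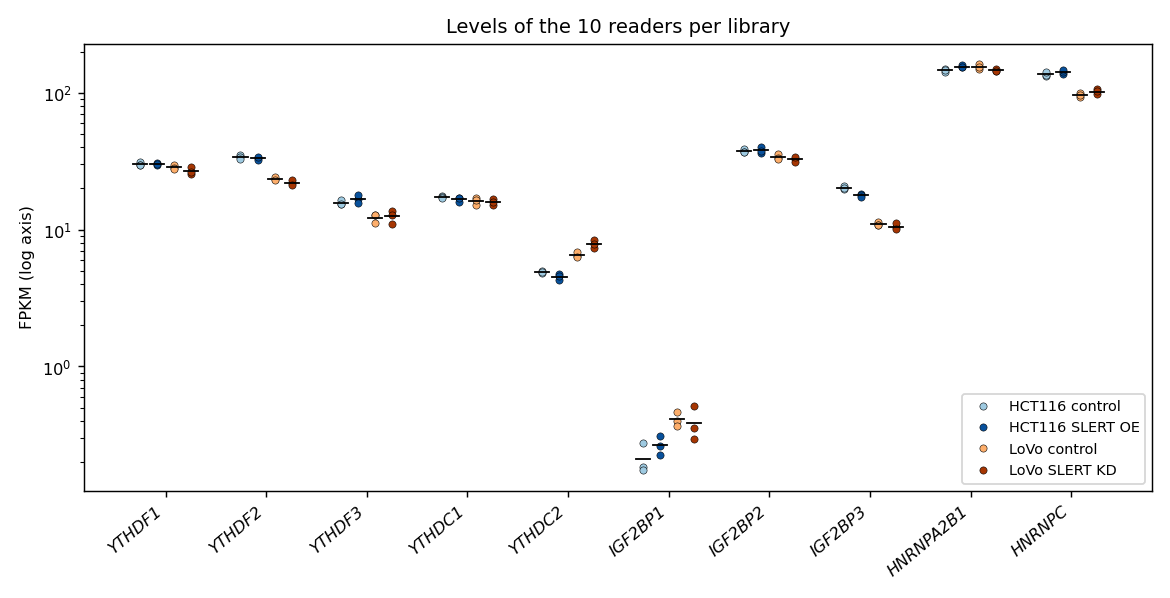
Level of each reader (FPKM, log axis) in each of the 12 libraries, with short bars for the mean of a group. HNRNPA2B1 and HNRNPC lie between 93.3 and 162 FPKM in all libraries, and IGF2BP1 lies at 0.174 to 0.514 FPKM.

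With SLERT overexpression in HCT116, no reader passed the test. By edgeR's quasi-likelihood test 0 of 10 were called at an adjusted p under 0.05, against 0.914% of all 15980 genes tested. DESeq2 also called 0, and 2 readers had an unadjusted edgeR p under 0.05, IGF2BP3 and HNRNPA2B1, against 14.4% of all genes. The 3 OE and the 3 control libraries did not overlap for 3 of 10 readers (YTHDC2, IGF2BP3 and HNRNPA2B1), against 19.1% of all genes. The median log2 fold change was 0.04 over the readers and -0.00 over all genes.

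In the LoVo libraries labelled KD, YTHDC2 rose and no other reader was called. In bulk RNA, a change in some of the cells and a smaller one in all of them cannot be told apart. The count called was 1 of 10 readers, against 26.3% of all 16253 genes tested and 12.6% called higher. Libraries of the arms did not overlap for 2 of 10 readers, YTHDC2 and HNRNPC, both higher, against 39.7% of all genes. The median log2 fold change was -0.02 over the readers and 0.00 over all genes. The share of readers called lay under that of all genes, a description of 10 genes with no test of the difference.

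**Figure D2:**
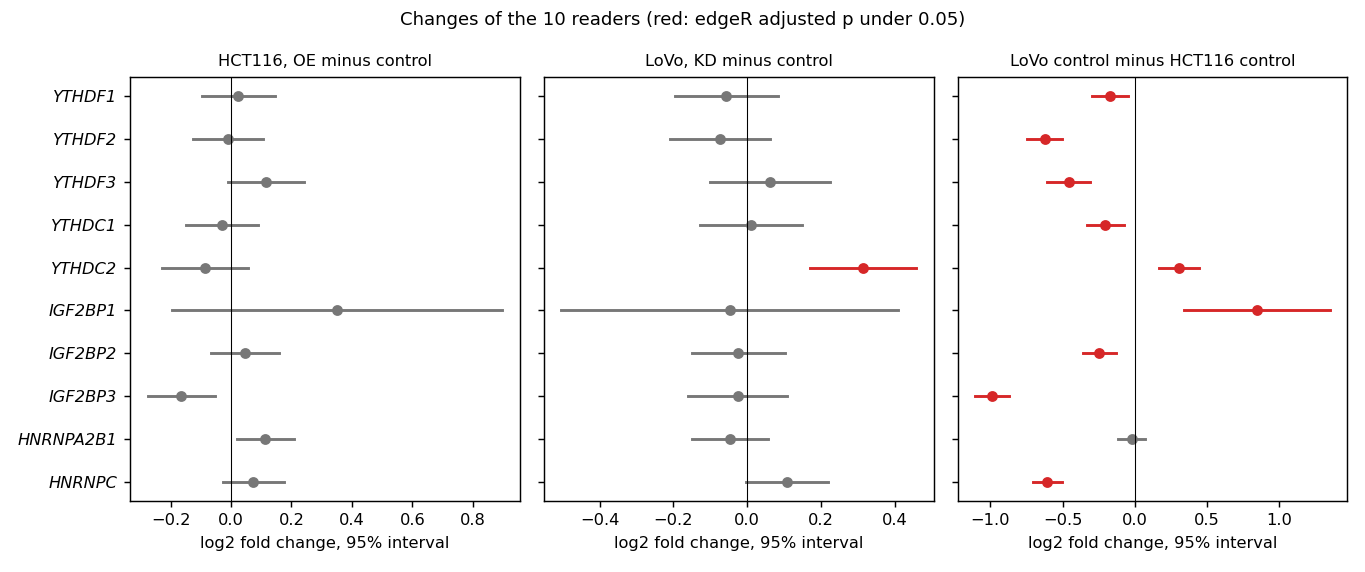
Log2 fold change of each reader with its 95% interval in HCT116 (OE minus control), in LoVo (KD minus control) and between the control groups of the lines, in red where the edgeR adjusted p was under 0.05. YTHDC2 is the only red point within a line, at 0.31 in LoVo, whereas 9 of 10 readers are red between the lines.

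Among the cytoplasmic readers, YTHDF1, known for promoting translation, had 99.5, 93.8 and 94.6 CPM in the HCT116 controls and 99.4, 95.8 and 97.6 CPM with OE. In LoVo it had 94.5, 90.1 and 88.9 CPM in controls and 94.2, 83.2 and 85.6 CPM with KD. Its arms overlapped in both lines, with log2 fold changes of 0.02 (95% interval -0.10 to 0.14) and -0.06 (-0.20 to 0.08).

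YTHDF2, which recruits the CCR4-NOT deadenylase to methylated mRNA, had 130, 124 and 123 CPM in HCT116 controls and 126, 122 and 127 CPM with OE. LoVo controls had 85.9, 90.1 and 86.1 CPM and KD libraries 83.4, 86.3 and 79.3 CPM. The arms overlapped, and the log2 fold changes were -0.01 (95% interval -0.13 to 0.11) and -0.07 (-0.21 to 0.06).

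YTHDF3, which works with both of these proteins, had 93.9, 100.4 and 94.1 CPM in HCT116 controls and 104, 111 and 97.5 CPM with OE. OE changed it by 0.12 on the log2 scale (95% interval -0.01 to 0.24; edgeR adjusted p = 0.401), and OE library 3 lay within the range of the controls. In LoVo the values were 67.8, 78.5 and 78.4 CPM in controls and 69.1, 84.9 and 80.3 CPM with KD, with a log2 fold change of 0.06 (-0.10 to 0.23). Library 1 was the lowest of each LoVo arm.

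Summed over the YTHDF family, counts changed by 0.04 (log2, SE 0.051) in HCT116 and -0.03 (SE 0.056) in LoVo, with edgeR adjusted p of 0.784 and 0.775. YTHDF1, YTHDF2 and YTHDF3 made up 37.8%, 42.6% and 19.7% of the family's FPKM in HCT116 controls. In LoVo controls they made up 44.4%, 36.6% and 18.98%. For each of these shares the arms of a line overlapped (exact permutation p of at least 0.2). With 3 against 3 libraries the smallest possible p is 0.1, so this test could not reach 0.05. The shares depend on the gene lengths behind the FPKM.

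Of the nuclear and helicase readers, YTHDC1 had 123, 121 and 119 CPM in HCT116 controls and 122, 112 and 122 CPM with OE. In LoVo it had 104, 118 and 115 CPM in controls and 108, 119 and 113 CPM with KD. The arms overlapped in both lines, with log2 fold changes of -0.03 (95% interval -0.15 to 0.09) and 0.01 (-0.13 to 0.15).

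YTHDC2 had 68.4, 72.8 and 67.6 CPM in LoVo controls and 80.8, 92.3 and 86.4 CPM with KD. Every KD library stood above every control. The rise was 1.24-fold (log2 fold change 0.31, SE 0.070, 95% interval 0.17 to 0.46; edgeR adjusted p = 0.00181), and it stayed called in all 15 alternative analyses, with log2 fold changes of 0.25 to 0.36 and adjusted p of 1.87e-05 to 0.0435. By unadjusted p it ranked 1361 of 16253 genes. In HCT116, YTHDC2 had 51.6, 53.3 and 52.7 CPM in controls and 46.9, 51.55 and 49.9 CPM with OE. The OE libraries were lower but by little, since OE library 2 lay just under the lowest control, and the log2 fold change of -0.09 (SE 0.070, 95% interval -0.23 to 0.06) was not called (adjusted p = 0.613).

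Since the arms run in opposite directions for SLERT, both lines were also put on a common axis, as the change with more SLERT by label (OE minus control, and control minus KD). The mean of the 2 changes was called for 1 of 10 readers, YTHDC2 at -0.21 (SE 0.048; edgeR adjusted p = 0.00419), against 11.6% of 18199 genes. Its change in HCT116 alone was not called, and the LoVo label was not borne out at the SLERT locus, where snoRNA counts were near the floor. The difference of the 2 changes was called for 0 of 10 readers by edgeR, against 14.6% of genes. The difference was 0.23 for YTHDC2 (adjusted p = 0.113), and 3 readers had an unadjusted p under 0.05 (28.1% of genes). DESeq2 called 1, HNRNPC.

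**Figure D3:**
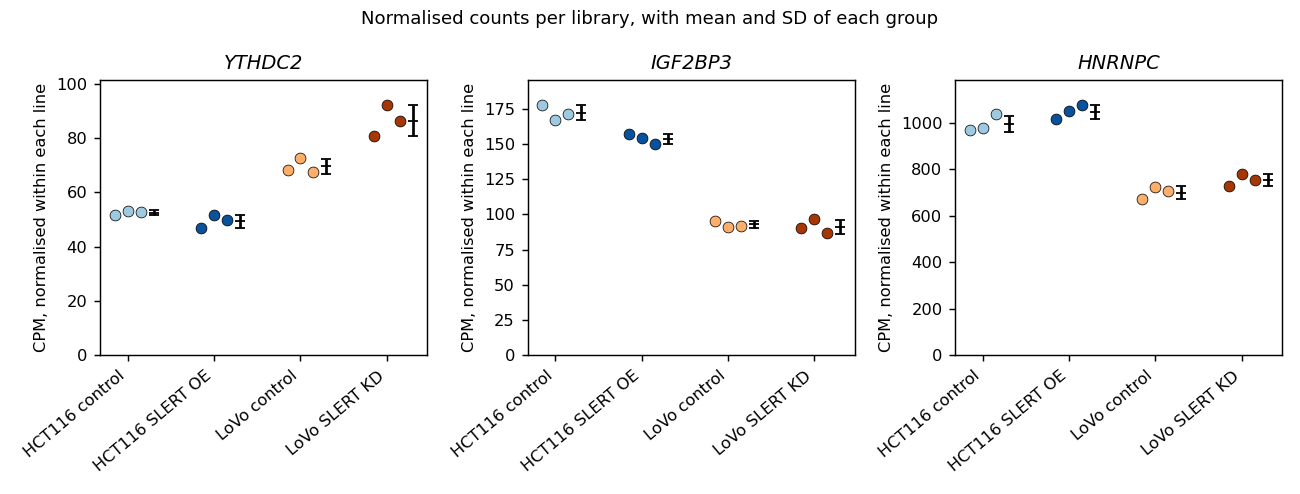
Normalised CPM of YTHDC2, IGF2BP3 and HNRNPC in each library (points) with the mean and SD of each group (bar with whiskers), on axes from 0. YTHDC2 is higher in all 3 LoVo KD libraries (80.8 to 92.3 CPM) than in the LoVo controls (67.6 to 72.8 CPM), and IGF2BP3 in LoVo lies far under its level in HCT116.

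The IGF2BP family is described next. IGF2BP1 was close to the limit of detection, with 27 to 46 counts in each HCT116 control, 33 to 49 with OE, 53 to 65 in each LoVo control and 43 to 73 with KD. The arms overlapped in both lines. Its intervals were wide, with log2 fold changes of 0.35 (95% interval -0.20 to 0.90) in HCT116 and -0.05 (-0.50 to 0.41) in LoVo, so a change of the size seen for YTHDC2 was not detectable at this depth.

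IGF2BP2, the main member of the family in both lines, had 205, 195 and 197 CPM in HCT116 controls and 217, 197 and 203 CPM with OE. LoVo controls had 189, 176 and 175 CPM and KD libraries 179, 169 and 183 CPM. The arms overlapped, and the log2 fold changes were 0.05 (95% interval -0.07 to 0.16) and -0.02 (-0.15 to 0.10).

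IGF2BP3 had 178, 167 and 171 CPM in HCT116 controls and 157, 154 and 150 CPM with OE, so that every OE library lay below every control. The log2 fold change of -0.16 (SE 0.054, 95% interval -0.28 to -0.05) had an unadjusted edgeR p of 0.00539 and missed the threshold after adjustment (adjusted p = 0.134, and 0.0879 to 0.414 over 14 alternatives). In LoVo it had 95.5, 91.2 and 91.9 CPM in controls and 90.2, 96.4 and 86.9 CPM with KD, which overlapped (log2 fold change -0.03, 95% interval -0.16 to 0.11). On the axis of more SLERT by label, which turns the sign of the LoVo change, the difference of the changes between the lines was -0.19 (edgeR adjusted p = 0.110).

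Within the family, IGF2BP3 made up 34.9% ± 0.202 of the summed FPKM in HCT116 controls and 31.7% ± 0.927 with OE. IGF2BP2 made up 64.7% ± 0.204 and 67.9% ± 0.921. For both shares the arms did not overlap, and the two-sided exact permutation p was 0.1, the smallest that 3 against 3 libraries allow (0.6 after Benjamini-Hochberg adjustment over 12 share comparisons). Because IGF2BP1 held so little, these 2 shares mirror each other and amount to 1 observation. Shares depend on the gene lengths behind the FPKM. For IGF2BP3 this length was 8535 bases, against 4250 bases for its longest protein-coding transcript. In LoVo the shares were alike in the arms, 24.2% ± 0.351 and 24.1% ± 1.67 for IGF2BP3 and 74.9% ± 0.454 and 75.0% ± 1.71 for IGF2BP2. IGF2BP1 held 0.363% of the family in HCT116 controls and 0.906% in LoVo controls. The summed counts of the family changed by -0.05 (log2, SE 0.052) in HCT116 and -0.02 (SE 0.056) in LoVo, neither called (edgeR adjusted p = 0.752 and 0.792).

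**Figure D4:**
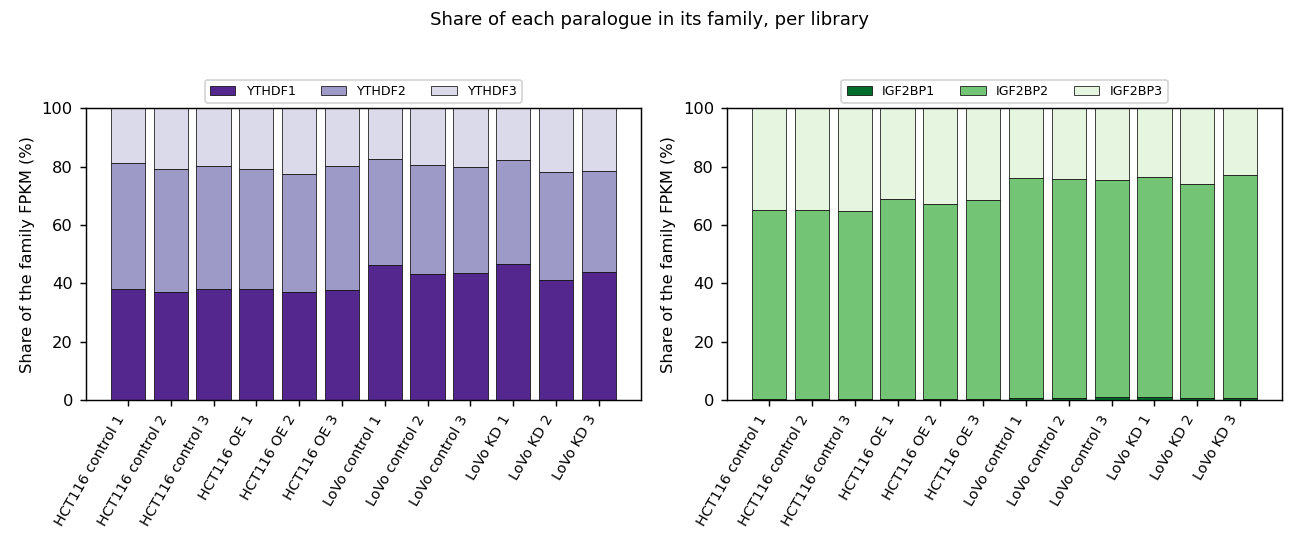
Share of each paralogue in the summed FPKM of its family (percent), stacked for each of the 12 libraries, for YTHDF1 to YTHDF3 and for IGF2BP1 to IGF2BP3. IGF2BP3 takes 34.7% to 35.1% in the HCT116 controls and 30.9% to 32.7% with OE, and at most 26.0% in any LoVo library.

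HNRNPA2B1, a reader linked to microRNA processing, had 1792, 1846 and 1853 CPM in HCT116 controls and 1959, 2014 and 1967 CPM with OE. All OE libraries were above all controls. The log2 fold change of 0.11 (SE 0.046, 95% interval 0.02 to 0.21) had an unadjusted edgeR p of 0.0200 and was not called (adjusted p = 0.237). In LoVo the arms overlapped, with 1845, 2015 and 1932 CPM in controls, 1842, 1917 and 1847 CPM with KD and a log2 fold change of -0.05 (95% interval -0.15 to 0.06).

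HNRNPC, whose access to its uridine tracts can depend on m6A, had 970.3, 979.5 and 1036 CPM in HCT116 controls and 1015, 1050 and 1077 CPM with OE, which overlapped (log2 fold change 0.07, 95% interval -0.03 to 0.17). In LoVo it had 672, 724 and 705 CPM in controls and 728, 781 and 754 CPM with KD. Each KD library was above each control, the lowest KD library only just. The log2 fold change of 0.11 (SE 0.054, 95% interval -0.00 to 0.22) was not called (edgeR adjusted p = 0.148), and it was called with the replicate number as a block (adjusted p = 0.0324). As treated against control, HNRNPC thus had positive log2 fold changes in both lines. On the axis of more SLERT by label, which turns the sign of the LoVo change, the difference of its changes between the lines was 0.18 (edgeR adjusted p = 0.0804). That difference was called by DESeq2 (0.19, adjusted p = 0.0168) and by edgeR without HCT116 control 3 (0.22, adjusted p = 0.0450).

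The control groups of the 2 lines differed in most readers, although line, vector and culture cannot be told apart here. LoVo differed from HCT116 for 9 of 10 readers (edgeR adjusted p under 0.05), against 76.6% of 18199 genes, so the count is not far from that of all genes. It was higher for 2 (YTHDC2 and IGF2BP1) and lower for 7, against 37.9% and 38.7% of genes. Levels below were scaled over all 12 libraries.

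IGF2BP3 was lower in LoVo controls, at 89.7 ± 2.21 against 178 ± 5.50 CPM in HCT116 controls (log2 fold change -0.99, SE 0.057; edgeR adjusted p = 1.16e-15). YTHDF2 was lower in LoVo, at 84.4 ± 2.32 against 130 ± 4.37 CPM (-0.63, adjusted p = 6.66e-11). HNRNPC was also lower in LoVo, at 677 ± 25.4 against 1030 ± 33.8 CPM (-0.61, adjusted p = 3.15e-12). Libraries of the 2 control groups did not overlap for the 9 called readers, against 78.4% of all genes.

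YTHDF3 (-0.46), IGF2BP2 (-0.25), YTHDC1 (-0.20) and YTHDF1 (-0.17) were lower in LoVo by less, with edgeR adjusted p of 2.02e-06, 0.000284, 0.00378 and 0.0123. The calls of YTHDF1 and YTHDC1 were lost under some scalings (limma on log2(FPKM + 1) gave -0.07 and -0.10). YTHDC2 was higher in LoVo, at 67.2 ± 2.70 against 54.3 ± 0.905 CPM (0.31, SE 0.067; adjusted p = 0.000160). IGF2BP1 was higher at 3.788 ± 0.487 against 2.096 ± 0.571 CPM (0.85, SE 0.25; adjusted p = 0.00287). HNRNPA2B1 was not called (-0.02, 95% interval -0.11 to 0.07, adjusted p = 0.657), and its sign turned under upper quartile factors (0.03).

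In the GENCODE v29 annotation of GRCh38, all 10 readers are protein-coding genes, on 9 chromosomes. YTHDF1 lies on chromosome 20 (63195429 to 63216234, minus strand), YTHDF2 on chromosome 1 (28736621 to 28769775, plus) and YTHDF3 on chromosome 8 (63168553 to 63212786, plus). YTHDC1 lies on chromosome 4 (68310387 to 68350089, minus) and YTHDC2 on chromosome 5 (113513683 to 113595285, plus). IGF2BP1 lies on chromosome 17 (48997412 to 49055650, plus), IGF2BP2 on chromosome 3 (185643739 to 185825056, minus) and IGF2BP3 on chromosome 7 (23310209 to 23470467, minus). HNRNPA2B1 also lies on chromosome 7 (26173057 to 26201529, minus), and HNRNPC on chromosome 14 (21209136 to 21269494, minus).

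Reads that several genes share limit some of these values. No stretch of 50 bases was shared among the 10 readers, taking the longest transcript of each in GENCODE v29. Of IGF2BP3, 35.04% of such stretches also lie in MALSU1, a mitochondrial ribosome gene on the opposite strand. MALSU1 had 31.9% as many counts as IGF2BP3, and whether counting used strand was unknown. MALSU1 was not called in HCT116 (0.09, edgeR adjusted p = 0.590) or LoVo (0.08, 0.531), and like IGF2BP3 it was lower in LoVo than in HCT116 (-0.71, adjusted p = 1.21e-09). Its part in the values of IGF2BP3 was not tested. HNRNPC shared 10.9% of its stretches with other genes, mostly the pseudogene HNRNPCP2, which had 1.13% as many counts. YTHDF2 shared 12.2% with YTHDF2P1, which had 44 counts in all 12 libraries. HNRNPA2B1 shared no such stretch, but its gene overlaps CBX3 on the opposite strand, which had 17.4% as many counts and changed by 0.13 in HCT116 and 0.11 in LoVo, neither called (adjusted p = 0.288 and 0.1798). IGF2BP2 shared 8.55% of its stretches with 3 other genes. YTHDC2, YTHDC1, YTHDF1, YTHDF3 and IGF2BP1 also shared none.

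The genes around the readers in the m6A pathway were taken from lists and are given by their counts, without a test of the lists. The counts stand beside 0.914% of all genes called in HCT116, 26.3% in LoVo (12.6% higher and 13.7% lower) and 76.6% between the lines. Among 15 writers and erasers, 0 were called in HCT116 (median log2 fold change 0.01). In LoVo, TRMT112, the partner of several methyltransferases, rose with KD (0.23, edgeR adjusted p = 0.0426), and the demethylase ALKBH5 fell (-0.22, adjusted p = 0.0184). Each lost its call in leave-one-out fits, TRMT112 in 4 and ALKBH5 in 3 of 6: TRMT112 (also with DESeq2, with limma and in the fit of all 12 libraries) without KD 1 or 3 or control 1 or 2, and ALKBH5 without KD 2 or 3 or control 3. Between the lines, 13 of the 15 differed (2 higher and 11 lower in LoVo), with log2 fold changes over the list of -1.68 to 0.81 and a median of -0.56, against 0.01 over all genes.

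Of 16 decay partners of YTHDF proteins and YTHDC2, 0 were called in HCT116 by edgeR (1 higher by DESeq2) and 4 in LoVo, close to the share of all genes there. UPF1, the helicase of nonsense-mediated decay, fell (-0.34, edgeR adjusted p = 0.000405), as did CNOT3 (-0.34, 0.00231), whereas the deadenylase CNOT7 rose (0.29, 0.00370), as did CNOT10 (0.29, 0.00890), which is named after its value was seen and lost its call without KD 3. CNOT7 was not called by limma on log2(FPKM + 1).

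Of 8 nuclear partners of YTHDC1, the splicing factor SRSF3 rose in HCT116 with OE (0.26, edgeR adjusted p = 0.0243), a call lost without control 1, control 2, OE 2 or OE 3, with limma on log2(FPKM + 1) and in the fit of all 12 libraries. In LoVo the export factor NXF1 fell (-0.24, adjusted p = 0.00815), lost without control 1, and SAFB2 fell (-0.19, 0.0453), lost in 5 of 6 leave-one-out fits, all but that without KD 1.

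Of 10 other proteins reported to bind m6A, 0 were called in HCT116 by edgeR and 1 by DESeq2. In LoVo LRPPRC (0.29, edgeR adjusted p = 0.000633), EIF3A (0.20, 0.00555) and RBMX (0.17, 0.0225, named after its value was seen) rose, and PRRC2A fell (-0.23, 0.0108). The call of RBMX was lost without KD 3 or any 1 of the controls, and that of PRRC2A without KD 2 or control 1. Of 23 further hnRNP genes, the relatives of HNRNPA2B1 and HNRNPC, HNRNPAB rose in HCT116 (0.21, adjusted p = 0.0389), lost without HCT116 control 1, control 2, OE 2 or OE 3, with limma, with upper quartile factors and in the fit of all 12 libraries. DESeq2 called 5 of the 23 higher in HCT116, among them HNRNPM (0.20, DESeq2 adjusted p = 0.00709) and HNRNPD (0.17, 0.0200). In LoVo 6 of the 23 rose and 0 fell by edgeR, beside 12.6% of all genes called higher and 13.7% called lower, and without KD 1 the counts were 6 and 2. Among the 6 were PCBP2 (0.34), HNRNPH1 (0.28) and HNRNPA1 (0.24). The median of the list was 0.08 in both lines, against -0.00 and 0.00 over all genes.

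Among mRNAs known to be bound by IGF2BP proteins, 0 of 14 measured were called in HCT116 by edgeR (1 by DESeq2) and 6 of 13 in LoVo, 2 higher and 4 lower. There MYC (0.25, edgeR adjusted p = 0.00469) and IGF2 (1.47, 0.00653) rose, both named after their values were seen, as was ACTB, which fell (-0.16, 0.0204). The calls of MYC, IGF2 and ACTB were lost with limma on log2(FPKM + 1), that of IGF2 also without KD 3, and that of ACTB without KD 2, KD 3 or control 3. FSCN1, an actin-bundling protein, fell from 59.1 ± 3.90 to 24.8 ± 1.69 CPM (-1.25, adjusted p = 1.11e-10). HMGA2, an oncofetal chromatin protein, fell from 57.3 ± 2.78 to 38.5 ± 3.23 CPM (-0.57, adjusted p = 1.11e-05). The non-coding RNA H19 fell from 4.74 ± 0.497 to 0.778 ± 0.137 CPM (-2.60, adjusted p = 1.62e-07). IGF2BP1, IGF2BP2 and IGF2BP3 themselves were not called in these libraries. Of 5 oncofetal genes measured in LoVo, IGF2 rose, and H19, HMGA2, TPBG (-0.49) and HMGA1 (-0.25, named after its value was seen) fell. In HCT116, 0 of 7 measured were called.

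**Figure D5:**
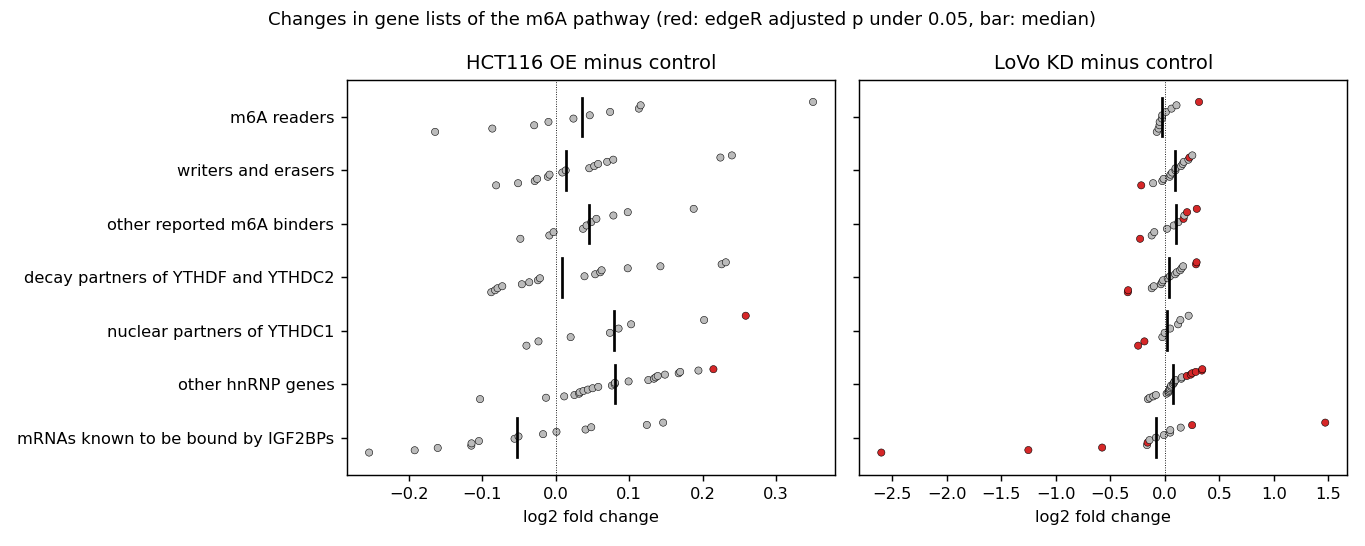
Log2 fold change of each tested gene (points) by list, with the median as a bar, in HCT116 (OE minus control) and LoVo (KD minus control), red where the edgeR adjusted p was under 0.05. The readers hold 1 red point, YTHDC2 in LoVo. H19 at -2.60 and IGF2 at 1.47, both in the IGF2BP-bound list, are the lowest and the highest points in LoVo. The oncofetal list is not drawn.

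The genes whose levels ran most like those of 2 readers were ranked by the root mean square difference of centred log2 CPM over the 12 libraries, among 18199 genes. For YTHDC2, the reader with the smallest p in LoVo, they were TCF12 (0.0417), GEM (0.0521) and RPL4 (0.0627), against a median of 0.549 over all genes. For IGF2BP3, the reader with the widest range of group means, they were HELZ (0.0551), LUZP1 (0.0599) and AGO2 (0.0637), against a median of 0.655. These are descriptions of 12 libraries, in which the difference between the lines weighs most.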

How the data were processed

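Per the submitters' processing notes, HISAT2 2.1.0 aligned the reads to GRCh38. The read counter, its annotation and its strand setting were not given in the sources used here. The authors deposited whole-number counts per gene and an FPKM table, whose values equalled the count divided by a gene length and by the column total. HCT116 control columns are headed Vector and were matched to that group by heading alone, the least certain mapping; their numbers are those of the columns. Labels name the cell lines, but their extraction text speaks of retinas; retina markers summed to 3.65 to 14.9 CPM.

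Counts were tested with edgeR 4.0.16 in R 4.3.3 (TMM, filterByExpr, quasi-likelihood F test, Benjamini-Hochberg over all genes, threshold 0.05), per line (15980 and 16253 genes) and over all 12 libraries (18199 genes). Levels are TMM-normalised CPM, intervals are 95%, and shares used FPKM with exact permutation tests. The script was tested on simulated data. Total counts were 14.46 to 17.23 M per library. The common biological coefficient of variation, edgeR's estimate of the spread between libraries beyond counting noise, was 6.00% in HCT116 and 6.41% in LoVo. Libraries of a group, scaled by their totals, differed by more than sampling noise (chi-square per degree of freedom of 2.40 to 6.63). Each was counted as 1 replicate, although such a spread can also be technical and does not show separate cultures.

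Named genes were the readers, the SLERT locus, up to 3 genes per list and line with the smallest p, and the 3 nearest patterns of 2 readers. The members and lists were chosen with earlier results of these data known. Alternatives were DESeq2 1.42.0, RLE and upper quartile factors, other filters, limma 3.58.1 on log2(FPKM + 1) or log2(FPKM + 0.1), leaving out each library, a replicate block, 1 fit of all libraries, and counts summed per family.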

Additional observations from a re-analysis of the deposited data

How the results depend on the processing

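With SLERT overexpression in HCT116, the number of genes called was 146 and depended on the analysis: 281 with DESeq2 (69.8% of them higher, against 55.5%), 256 without a filter, 7 with limma on log2(FPKM + 1) and 7 on log2(FPKM + 0.1), and 37 to 287 when single libraries were left out. Upper quartile factors made 41.8% of the calls higher. No reader was called in any of these 14 analyses that tested them. In LoVo 4278 genes were called, 2845 with limma on log2(FPKM + 1) (34.0% higher, against 47.9%), and 2769 to 4813 with single libraries left out, lowest without control 3 and 2809 without control 1. The cause of these shifts was not tested, beyond the fewer libraries.

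YTHDC2 kept its call in LoVo and in the mean over the lines in every alternative. The readers called in LoVo became 2 with the replicate block, the second being HNRNPC (adjusted p = 0.0324), which also called 5588 genes. Deviations of same-numbered LoVo libraries from their group means correlated weakly, at 0.0153 to 0.0611, against -0.0531 to 0.0021 for libraries of different numbers. Each library correlated best with its own number. Whether the numbers pair the LoVo libraries was not tested. In HCT116 no block was fitted, because the Vector columns were matched to their group alone and their heading numbers are not those of labelled samples. For the difference between the lines of the change with more SLERT by label, DESeq2 called 1 reader (HNRNPC). Limma on either FPKM scale called 1 (IGF2BP3, -0.23 and -0.24), as did edgeR without HCT116 control 3 (HNRNPC). The range over left-out libraries was 0 to 1. For the mean, DESeq2 called 2 (YTHDC2, and HNRNPA2B1 at 0.08). Counts over the pathway lists were small and moved as well: in HCT116, DESeq2 called 5 of the further hnRNP genes against 1, and in LoVo leaving out single libraries gave 1 to 4 decay partners higher against 2, and 0 to 2 nuclear partners of YTHDC1 lower against 2.

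Signs turned only for readers not called. With limma on log2 FPKM, first with a pseudocount of 1 and then of 0.1, the log2 change of YTHDC1 in LoVo was -0.020 and -0.021, the difference of changes of IGF2BP2 -0.031 and -0.032, and HNRNPA2B1 between the lines 0.080 and 0.081 (0.031 with upper quartile factors). On the second of these scales the median of all genes between the lines stood at 0.105. With single libraries left out, log2 changes spanned 0 in HCT116 for YTHDF2 (-0.026 to 0.017), YTHDC1 (-0.050 to 0.011), and in LoVo for YTHDC1 (-0.040 to 0.046), IGF2BP1 (-0.30 to 0.11), IGF2BP2 (-0.044 to 0.014), IGF2BP3 (-0.062 to 0.0092), YTHDF3 (-0.0046 to 0.14), and in the mean change for HNRNPC (-0.030 to 0.0011), YTHDC1 (-0.035 to 0.0079), YTHDF3 (-0.011 to 0.062), and in the difference of changes for IGF2BP2 (-0.013 to 0.061), YTHDC1 (-0.068 to 0.025), YTHDF1 (-0.086 to 0.0079), and between the lines for HNRNPA2B1 (-0.057 to 0.0081).

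IGF2BP1, with at most 73 counts per library, is the reader that depth limits most.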
